A study of Mus musculus with 9 samples.

Results

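The phagocyte NADPH oxidase and superoxide handling were followed through 6 genes in CD11b+ bone marrow cells: Cybb, Cyba, Ncf1, Ncf4, Rac2 and Sod2. They were taken by symbol from the 23337 genes in the count files, each symbol matched 1 gene, and all 6 members were among the 12553 genes that passed the filter on low counts. The measurement was RNA sequencing of cells from the femurs and tibias of male C57BL/6 mice, 3 to 6 weeks old when obtained, with 3 mice in each of 3 groups. PBS mice had 3 tail vein injections of 100 µl saline on days 1, 3 and 5. EnzR EVs mice had instead 10 µg (EV protein) of extracellular vesicles per injection, from enzalutamide-resistant CWR-R1 cells, a human prostate cancer line. EnzR EVs + HDL NPs mice had the same vesicles and, on days 0, 2 and 4, also 100 µl of nanoparticles that mimic high-density lipoprotein, at 1 µM by the labels and 100 µM by the methods. No group had the nanoparticles without vesicles, so the third group differs from PBS by both agents. The comparisons ask whether vesicle injection changed these genes and whether the nanoparticles altered that.

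The phagocyte NADPH oxidase passes electrons from NADPH across the membrane to oxygen and so makes superoxide, the first product of the respiratory burst of neutrophils, monocytes and macrophages. Its membrane core is a flavocytochrome made of a catalytic chain, encoded by Cybb, and a smaller chain, encoded by Cyba, that stabilises it and docks the cytosolic subunits. In resting cells cytosolic subunits, among them the organiser encoded by Ncf1 and the adaptor encoded by Ncf4, wait in the cytosol, and they move to the membrane with the small GTPase encoded by Rac2 once the cell is stimulated. Sod2 is not an oxidase subunit: it encodes the manganese superoxide dismutase of mitochondria, which turns superoxide into hydrogen peroxide.

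On the GENCODE annotation of GRCm38 (the same assembly as mm10, to which the reads were aligned), all 6 are protein-coding genes. The counts were made on the UCSC annotation, whose exons may differ from those of GENCODE. Cybb lies at chrX:9435252-9487771 on the minus strand, Cyba at chr8:122424776-122432930 on the minus strand and Ncf1 at chr5:134220053-134229625 on the minus strand. Ncf4 and Rac2 are both on chromosome 15, at chr15:78244801-78262580 on the plus strand and chr15:78559167-78572783 on the minus strand. Sod2 lies at chr17:13006846-13040063 on the plus strand. Ncf1 shares 408 exonic bases, 11.1% of its exonic length, with Gtf2ird2 on the other strand. The libraries were stranded, but the strand setting of the counting is not given in the sources used here. Counts on Gtf2ird2 were 1.24% to 2.49% of those on Ncf1 in the same library.

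RefSeq (GRCm38.p6) gave the 250 bases before the transcription start of 4 members, Cybb, Cyba, Ncf1 and Sod2, and all 4 are shown; the other 2 had no match in that table. The sequences run 5′ to 3′ on the gene's own strand and end at the base before the start. Capitals mark matches, on either strand, to TTCNNNGAA (the gamma-activated site, GAS), the ISRE core (2 blocks of GAAA with any 2 bases between them, from the interferon-stimulated response element bound by IRF factors), CCAAT and GGGCGG (the GC box). TATAAA and AGGAAG were also searched for and had no match in these 4 windows. The Cybb window is chrX:9469325-9469574, the Cyba window chr8:122432941-122433190, the Ncf1 window chr5:134229626-134229875 and the Sod2 window chr17:13007589-13007838. The RefSeq starts of Cybb and Sod2 lie inside the GENCODE spans given above, 18.4 kb and 0.993 kb downstream of the outermost annotated start: that of Cybb is also the start of its GENCODE transcript Cybb-201, and that of Sod2 is 20 bases from the nearest GENCODE transcript start. For Ncf1 the RefSeq and GENCODE starts are the same, and for Cyba they are 10 bases apart.
Cybb: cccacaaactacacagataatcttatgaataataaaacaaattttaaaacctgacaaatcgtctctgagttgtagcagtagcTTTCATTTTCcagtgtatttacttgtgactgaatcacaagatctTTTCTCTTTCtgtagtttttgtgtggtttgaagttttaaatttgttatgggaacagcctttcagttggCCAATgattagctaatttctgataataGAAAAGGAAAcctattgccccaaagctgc
Cyba: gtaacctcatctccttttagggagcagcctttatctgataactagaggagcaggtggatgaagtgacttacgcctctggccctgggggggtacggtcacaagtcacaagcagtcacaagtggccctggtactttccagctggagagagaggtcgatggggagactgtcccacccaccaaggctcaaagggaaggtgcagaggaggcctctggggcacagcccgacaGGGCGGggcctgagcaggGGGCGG
Ncf1: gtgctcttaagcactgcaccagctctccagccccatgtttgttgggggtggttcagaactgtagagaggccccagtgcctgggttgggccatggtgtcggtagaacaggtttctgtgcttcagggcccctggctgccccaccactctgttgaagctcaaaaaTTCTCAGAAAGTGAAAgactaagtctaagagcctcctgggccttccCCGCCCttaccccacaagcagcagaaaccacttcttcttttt
Sod2: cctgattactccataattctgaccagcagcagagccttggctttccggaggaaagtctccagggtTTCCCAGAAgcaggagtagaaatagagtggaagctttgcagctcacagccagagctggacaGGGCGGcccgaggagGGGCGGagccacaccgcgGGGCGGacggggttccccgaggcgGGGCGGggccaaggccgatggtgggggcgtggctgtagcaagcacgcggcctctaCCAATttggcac

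The window of Cybb is poor in G and C (34% of bases, against 60% for Cyba, 54.4% for Ncf1 and 63.6% for Sod2) and holds 3 matches to the ISRE core and 1 to CCAAT. The Ncf1 window holds a GAS match at -88 to -80 from the start that overlaps an ISRE core match at -82 to -73, and a GC box. Cyba has 2 GC boxes and neither of the interferon-related motifs, whereas Sod2 has 4 GC boxes, a GAS match and a CCAAT box. Over 32851 promoter windows of the same length, 2.98% held the ISRE core, 7.02% TTCNNNGAA, 33.8% CCAAT, 32.7% GGGCGG, 12.4% TATAAA and 29.5% AGGAAG. A match says only that these letters are present.

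Library totals ran from 6006087 to 16381679 counts in PBS mice, from 2575776 to 18110561 in EnzR EVs mice and from 13231038 to 16611934 in EnzR EVs + HDL NPs mice. The 3 libraries with the lowest totals, EnzR EVs replicate 1, PBS replicate 1 and EnzR EVs replicate 3, also had 42.7%, 20.3% and 14.2% of their counts on Rn45s, the precursor of ribosomal RNA, against 0.657% to 2.87% in the other 6. No EnzR EVs + HDL NPs library was among these 3. The fold changes of the members are therefore also given without them. Itgam, the gene of CD11b, stood at 1389 to 2006 CPM (counts scaled to a common library size) in the 9 libraries, with overlapping groups, and the erythroid genes Hba-a1 and Hbb-b1 had 0 counts in all libraries. Summed CPM of 9 neutrophil markers were 30539 to 145574, of 7 monocyte markers 1356 to 2592 and of 6 T and NK cell markers 25.5 to 77.9. Markers of eosinophils (3 genes, 1251 to 2902 CPM) and of marrow macrophages (7 genes, 444 to 940 CPM) were also present, and those of the B lineage (7 genes, 7.61 to 22.4 CPM) and of dendritic cells (4 genes, 10.9 to 28.1 CPM) were low. In bulk RNA of this kind, fewer cells of a type and less RNA per cell cannot be told apart.

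The members differed widely in level. Ranked by mean CPM (scaled by the trimmed mean of M-values, TMM) among the 12553 genes tested, Cybb was 19th, Ncf1 31st, Rac2 78th, Cyba 335th, Ncf4 475th and Sod2 4688th. Per kilobase of exon, which allows genes to be compared, PBS mice had 449 ± 131 CPM per kb of Cybb (SD, n = 3), 424 ± 68.8 of Ncf1, 374 ± 20.7 of Cyba, 307 ± 50.4 of Rac2, 150 ± 56.8 of Ncf4 and 3.59 ± 0.205 of Sod2. In the PBS mice the ranges of Cybb, Ncf1 and Cyba overlapped. Rac2 (252 to 349 CPM per kb) lay below Cyba (352 to 394) but overlapped Cybb and Ncf1. Ncf4 and Sod2 lay below all of the first 4 in these mice. The order was the same in EnzR EVs + HDL NPs mice, from 557 ± 71.0 of Cybb through 478 ± 77.8 of Ncf1 and 317 ± 74.3 of Cyba to 175 ± 37.0 of Ncf4, while in EnzR EVs mice Ncf1 (419 ± 87.1) stood before Cybb (384 ± 206) within their spread. The lengths are unions over all annotated transcripts, so a gene with long exons that are rarely used would be set low on this scale. They come from GENCODE, whereas the counts were made on the UCSC annotation, and differences between the annotations were not examined. The length of Sod2 was 10.008 kb, and how far its exons are used was not measured.

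Cybb, the catalytic chain, had 1739, 3154 and 2931 TMM CPM in the 3 PBS mice, 1027, 3423 and 2234 in the EnzR EVs mice and 3124, 3693 and 2890 in the EnzR EVs + HDL NPs mice. The EnzR EVs group spanned the PBS group, and the mice given nanoparticles held the narrowest range, near the upper end of the other groups. Cyba, its partner chain, had 366, 409 and 390 CPM in PBS mice, 337, 426 and 388 in EnzR EVs mice and 290, 418 and 279 in EnzR EVs + HDL NPs mice. Its lowest values were in 2 mice of the third group, in libraries with 3124 and 2890 CPM of Cybb, and all groups overlapped.

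Ncf1, the organiser, had 1276, 1769 and 1613 CPM in PBS mice, 1196, 1830 and 1578 in EnzR EVs mice and 1503, 2063 and 1690 in EnzR EVs + HDL NPs mice. Ncf4, the adaptor that binds a lipid of the phagosome membrane, had 170, 367 and 369 CPM in PBS mice, 81.2, 401 and 218 in EnzR EVs mice and 319, 439 and 301 in EnzR EVs + HDL NPs mice. Both groups of replicates without nanoparticles contained a low and a high mouse for Ncf4, and the third group did not. The lowest value rested on 148 counts, and its exact 95% Poisson interval of 68.7 to 95.4 CPM, which covers counting error only, left it below every other library. Rac2, the GTPase, had 781, 1084 and 997 CPM in PBS mice, 555, 1107 and 882 in EnzR EVs mice and 770, 1048 and 874 in EnzR EVs + HDL NPs mice. Its groups overlapped throughout.

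Sod2 had 38.0, 35.9 and 33.9 CPM in PBS mice, 31.8, 33.2 and 33.7 in EnzR EVs mice and 35.0, 32.6 and 32.2 in EnzR EVs + HDL NPs mice. It was the steadiest member, with a highest value 1.19 times its lowest over the 9 libraries, against 5.40 times for Ncf4 and 3.59 times for Cybb. The same ratio was 1.99 for Rac2, 1.72 for Ncf1 and 1.52 for Cyba, and its median over the 1963 tested genes with a mean of at least 100 CPM was 1.79. Sod2 was the only member whose EnzR EVs mice all lay below the PBS mice, the nearest mice being at 33.7 and 33.9 CPM. The value of EnzR EVs replicate 1 rested on 58 counts, and its exact 95% Poisson interval of 24.2 to 41.1 CPM covered all 3 PBS values.

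**Figure D1:**
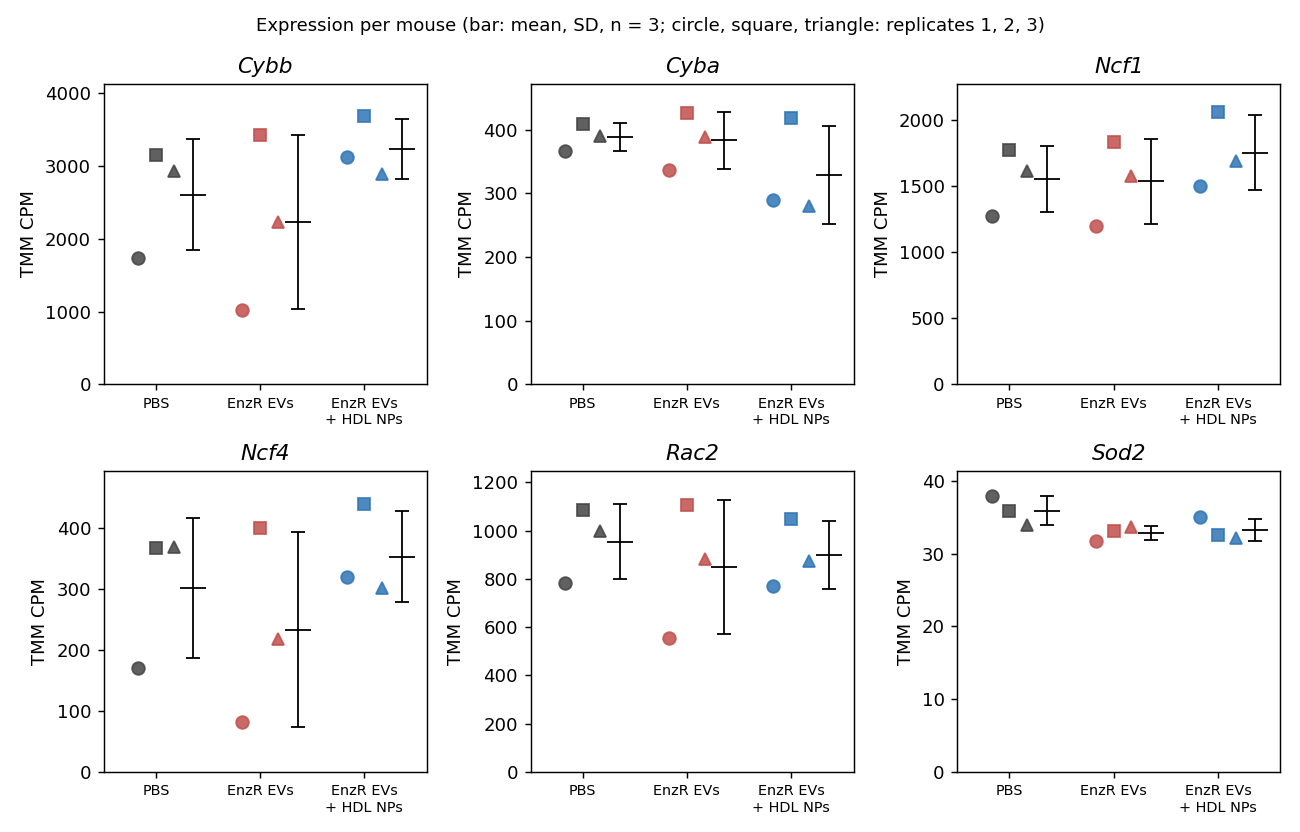
TMM-scaled CPM (y axis, linear from 0) of each member in each mouse of the 3 groups; circles, squares and triangles are replicates 1, 2 and 3, and bars to their right are the mean and SD (n = 3). For Cybb and Ncf4 the circles of PBS and EnzR EVs lie far below the squares (1739 against 3154 CPM and 1027 against 3423 CPM for Cybb), while Sod2 stays between 31.8 and 38.0 CPM.

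Between EnzR EVs and PBS mice, none of the 6 members was called by edgeR's quasi-likelihood test at an adjusted p of 0.05, and the percentage called among all genes was 0% (0 of 12553). At an unadjusted p under 0.05, 436 genes passed (3.47%), none of them a member. DESeq2 called 14 genes, limma voom 0 and limma voom with sample quality weights 1990, and none of these calls was a member. The fit with quality weights put Ncf4 at -0.72 (limma adjusted p = 0.0556) and Cybb at -0.46 (adjusted p = 0.112), further from 0 than edgeR did. All 6 estimates were below 0, against 53.5% of the genes tested. The log2 fold change was -0.23 ± 0.379 for Cybb (SE; 95% interval -1.07 to 0.61; edgeR adjusted p = 0.935), -0.36 ± 0.474 for Ncf4 (-1.41 to 0.69) and -0.17 ± 0.254 for Rac2 (-0.73 to 0.39). For Ncf1 it was -0.016 ± 0.219 (-0.50 to 0.47), for Cyba -0.017 ± 0.189 (-0.43 to 0.40) and for Sod2 -0.12 ± 0.147 (-0.45 to 0.20). The intervals of Cyba, Ncf1 and Sod2 leave room for changes of up to about 0.50 in log2, and those of Cybb and Ncf4 for more than 1, so that a difference of that size was not detectable here. For Sod2, the two-sided exact permutation test gave p = 0.10, the smallest that 3 mice against 3 allow. Without overlap in this direction were 4.52% of all genes, and 7.96% in either.

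Without the 3 libraries with much Rn45s, which leaves 2 PBS mice and 1 EnzR EVs mouse whose spread is taken from the other groups, the direction of 5 members turned: the log2 fold change was 0.17 for Cybb, 0.13 for Ncf4, 0.12 for Ncf1, 0.096 for Cyba and 0.093 for Rac2, and -0.071 for Sod2 (edgeR adjusted p = 1.00 for each). EnzR EVs replicate 1 alone was enough: without it, Cybb stood at 0.12 and Ncf4 at 0.037. The lower estimates of these 5 members thus rest on libraries with low totals and much Rn45s, and the part of those features in them was not tested.

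Between EnzR EVs + HDL NPs and PBS mice, none of the members was called by edgeR (0% of all genes), and none was among the 268 genes (2.13%) with an unadjusted p under 0.05. DESeq2 called 2 genes, limma voom 0 and voom with quality weights 10, again with no member. The estimates split evenly: 3 were higher in the mice given both agents (Cybb 0.31 ± 0.379, Ncf4 0.22 ± 0.473 and Ncf1 0.17 ± 0.219) and 3 lower (Cyba -0.24 ± 0.189, Sod2 -0.11 ± 0.144 and Rac2 -0.089 ± 0.254). The adjusted p of edgeR was 1.00 for every member. Cyba had the smallest unadjusted p, 0.232, and a 95% interval of -0.66 to 0.18. Estimates above 0 made up 48.9% of all genes and those below 0 made up 51.1%. Every member's groups overlapped, while 13.2% of all genes did not overlap. Without the 3 libraries with much Rn45s, Cybb was at 0.089, Ncf1 at 0.052, Cyba at -0.28, Rac2 at -0.21 and Sod2 at -0.069, and Ncf4 turned to -0.061.

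Between EnzR EVs + HDL NPs and EnzR EVs mice, which differ by the nanoparticles, none of the members was called by edgeR (0% of all genes), and the 1325 genes (10.6%) that reached an unadjusted p under 0.05 held no member. DESeq2 called 1 gene, limma voom 0 and voom with quality weights 653, none of them a member. Higher in the nanoparticle group were 5 of 6 members and 52.8% of all genes. Every member's groups overlapped here too, while 17.6% of all genes were without overlap. Ncf4 was at 0.59 ± 0.475 (95% interval -0.46 to 1.64; edgeR adjusted p = 0.578), Cybb at 0.54 ± 0.380 (-0.30 to 1.38; adjusted p = 0.540) and Ncf1 at 0.19 ± 0.219 (-0.29 to 0.67). Rac2 was at 0.079 ± 0.254, Sod2 at 0.014 ± 0.147 and Cyba, the only member below 0, at -0.22 ± 0.189 (-0.64 to 0.20). The labels do not say that equal replicate numbers pair the mice. With the replicate number as a block, Cybb was at 0.69 and Ncf4 at 0.83, each with an unadjusted p of 0.031 (edgeR adjusted p = 0.246 and 0.247), while 18.2% of all genes had an unadjusted p under 0.05 in that fit. Single libraries moved both values: without EnzR EVs replicate 1, Cybb was at 0.19 and Ncf4 at 0.18, and without EnzR EVs replicate 2 they were at 0.97 and 1.20. Without the 3 libraries with much Rn45s the estimate was -0.084 for Cybb, -0.19 for Ncf4, -0.066 for Ncf1 and -0.31 for Rac2, so 4 of the 5 positive estimates changed sign. Sod2 was at 0.0020 and Cyba at -0.38 without them.

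**Figure D2:**
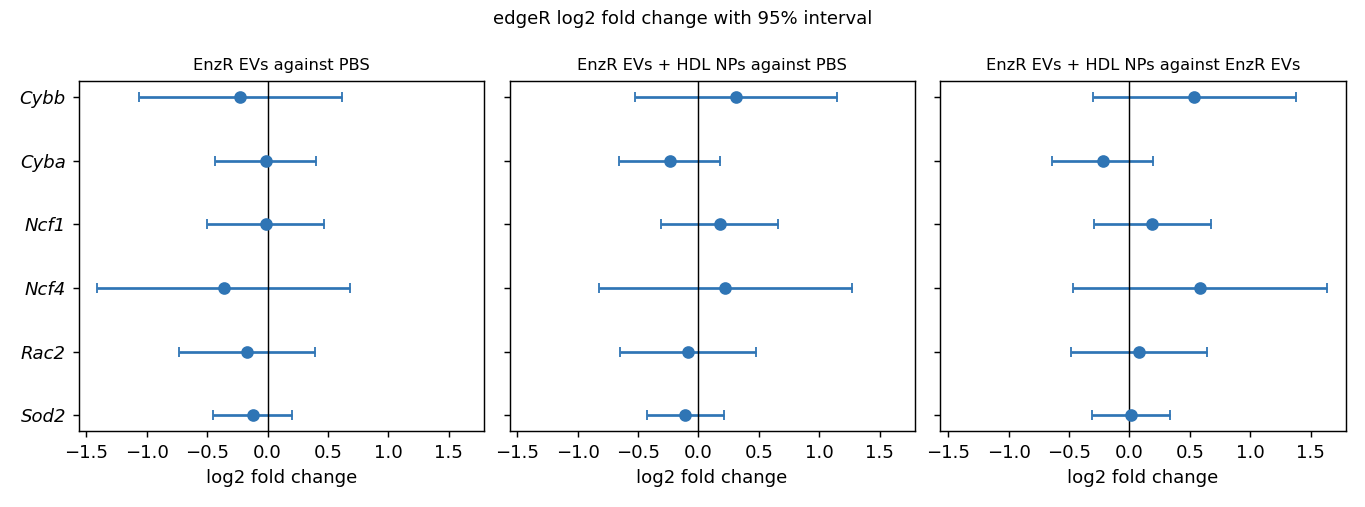
Log2 fold changes of edgeR's quasi-likelihood fit (x axis) with 95% intervals for the 6 members in the 3 comparisons; a value above 0 is higher in the group named first. Every interval includes 0, and the intervals of Cybb and Ncf4 are the widest (-0.46 to 1.64 for Ncf4 with nanoparticles against without).

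The lowest values of Cybb and Ncf4 were in the same 3 libraries, which belong to 2 groups. The 3 libraries with the most Rn45s had 1027 to 2234 CPM of Cybb and the other 6 had 2890 to 3693 CPM. For Ncf4 these ranges were 81.2 to 218 CPM and 301 to 439 CPM. Neither pair of ranges overlapped, which held in this direction for 17.9% of all genes. Ncf1, Rac2, Cyba and Sod2 overlapped: the medians of the 3 and of the 6 libraries were 1276 and 1729 CPM for Ncf1, 781 and 1023 CPM for Rac2, 366 and 400 CPM for Cyba and 33.7 and 33.5 CPM for Sod2. Rac1, the paralogue of Rac2 that most other cells use, lay on the other side, at 337 to 382 CPM in the 3 libraries and 266 to 301 CPM in the others, a separation upwards that 15.5% of all genes had. Reads from stretches that the 2 Rac genes share may have been lost or split in counting.

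A like order was seen inside both groups that held such libraries. In PBS replicate 1, Ncf4 was 0.461 and Cybb 0.572 times the mean of the other 2 PBS mice, with Ncf1 at 0.754, Rac2 at 0.750, Cyba at 0.916 and Sod2 at 1.09. EnzR EVs replicate 1 had 0.203 times the Ncf4 and 0.300 times the Cybb of replicate 2, with Rac2 at 0.502, Ncf1 at 0.654, Cyba at 0.791 and Sod2 at 0.960. For EnzR EVs replicate 3 the values were 0.544 for Ncf4, 0.653 for Cybb, 0.797 for Rac2, 0.862 for Ncf1, 0.911 for Cyba and 1.02 for Sod2. Cybb and Ncf4 were thus the most reduced and Cyba and Sod2 the least in all 3 libraries. The summed level of the 9 neutrophil markers in these libraries was 55089, 30539 and 66653 CPM, against 82265 to 145574 CPM in the other 6, so it moved with Cybb and Ncf4. S100a8 (1746 to 38307 CPM) and S100a9 (2229 to 51363 CPM) had the widest ranges of that list over the 9 libraries. The neutrophil sum without S100a8 and S100a9 was not compared. The 4 early granulocyte markers lay the other way, at 1905, 2097 and 2025 CPM against 758 to 1866 CPM, but mostly through Mpo, without which the other 3 overlapped, at 697, 424 and 835 CPM against 319 to 801 CPM. The sum of the 6 T and NK cell markers also lay higher, at 52.6, 77.9 and 50.4 CPM against 25.5 to 45.0 CPM. Nkg7, at 16.4 to 66.9 CPM, was its largest part in each library, and no other marker of that list passed 6.36 CPM. The sum without Nkg7 was not compared. Of the 4 that were tested in EnzR EVs against PBS, 1 was higher and 3 lower. The monocyte sum overlapped, at 2324, 1356 and 1729 CPM against 1783 to 2592 CPM, and so did the sums of the other marker lists. The part of cell composition, depth or RNA quality in this pattern was not tested.

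**Figure D3:**
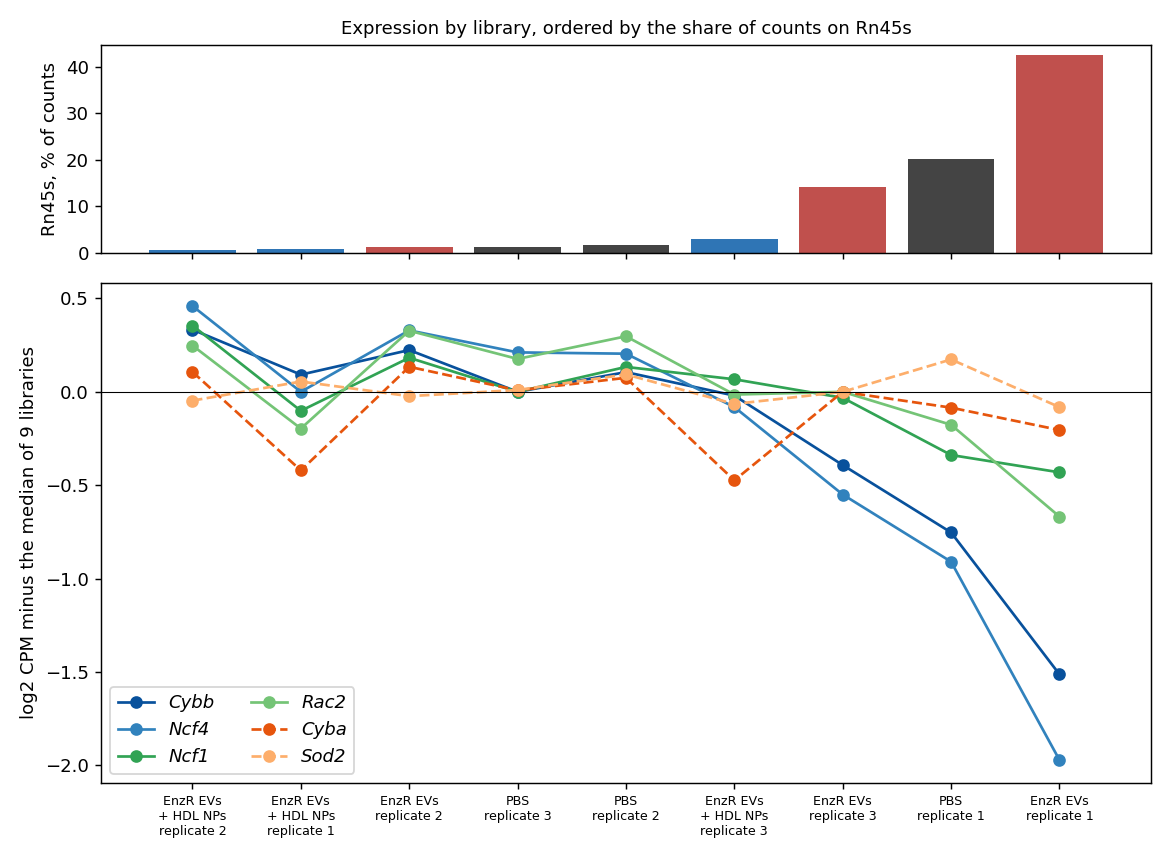
Upper panel: share of counts on Rn45s (%) in the 9 libraries, ordered by that share and coloured by group (grey PBS, red EnzR EVs, blue EnzR EVs + HDL NPs). Lower panel: log2 CPM of each member minus its median over the 9 libraries; Cybb and Ncf4 are lowest in the 3 libraries at the right, whose shares are 14.2%, 20.3% and 42.7%, and Cyba and Sod2 change little there.

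Ratios between members inside a library need no scaling to the library total. They were looked at after the values were known, so they are a description with no test. Among the 15 pairs of members, the ratios did not overlap between groups in 1 pair for EnzR EVs against PBS, in 6 for EnzR EVs + HDL NPs against PBS and in 4 for EnzR EVs + HDL NPs against EnzR EVs. Over all pairs of the tested genes with a count in each library, 8.2%, 13.4% and 16.4% did not overlap in these comparisons. The 15 pairs share their 6 genes and are not independent of each other. The counts of Cybb were 4.75, 7.71 and 7.51 times those of Cyba in PBS mice, 3.05, 8.03 and 5.75 times in EnzR EVs mice and 10.8, 8.83 and 10.3 times in EnzR EVs + HDL NPs mice. The 2 chains of the flavocytochrome therefore stood at a higher ratio in each mouse given nanoparticles than in any other mouse, and the 3 libraries with much Rn45s had the 3 lowest ratios (3.05 to 5.75).

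The ratio of Cyba to Ncf1 was 0.287, 0.231 and 0.242 in PBS mice, 0.282, 0.233 and 0.246 in EnzR EVs mice and 0.193, 0.203 and 0.165 in EnzR EVs + HDL NPs mice. Here the third group lay below both others, and the 3 libraries with much Rn45s had the 3 highest ratios (0.246 to 0.287, against 0.165 to 0.242 in the other 6). The ratio of Ncf1 to Rac2 was 1.63, 1.63 and 1.62 in PBS mice, 2.15, 1.65 and 1.79 in EnzR EVs mice and 1.95, 1.97 and 1.93 in EnzR EVs + HDL NPs mice. Both groups given vesicles lay above the PBS mice, whose 3 values were nearly the same. Each member was also set against the 11822 other tested genes with a count in each library. The ratio of Cyba to another gene lay lower in all EnzR EVs + HDL NPs mice than in all PBS mice for 16.2% of these genes, and than in all EnzR EVs mice for 20.2%. For Cybb higher, these shares were 14.9% and 9.44%, and for Ncf1 higher 7.78% and 4.75%. For the separation of Ncf1 from Rac2 between EnzR EVs and PBS mice, Ncf1 was higher against 8.04% of genes and Rac2 lower against 2.07%, and between EnzR EVs + HDL NPs and PBS mice the shares were 7.78% and 10.6%.

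**Figure D4:**
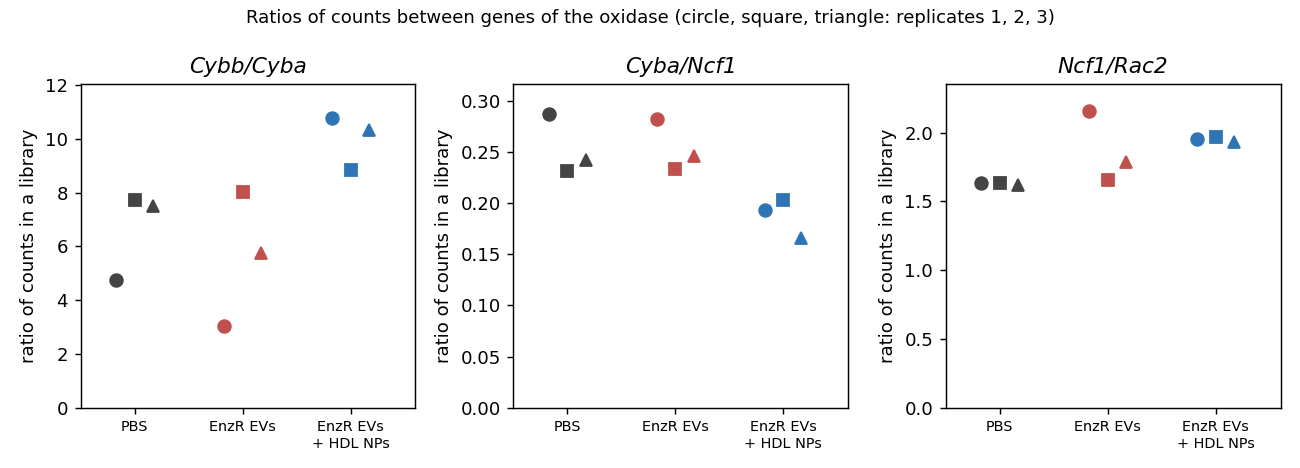
Ratio of raw counts within a library (y axis, linear from 0) for 3 pairs of members in each mouse; circles, squares and triangles are replicates 1, 2 and 3. Cybb/Cyba is 8.83 to 10.8 in EnzR EVs + HDL NPs mice and 3.05 to 8.03 in the others, Cyba/Ncf1 is lowest in the same group, and Ncf1/Rac2 is 1.62 to 1.63 in PBS mice.

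The 5 genes nearest to the mean pattern of the 6 members over the 9 libraries, by the root-mean-square difference of standardised log2 CPM, were Capg (0.263), Ubxn6 (0.269), Coro1a (0.272), Gnai3 (0.280) and Rab31 (0.289). Capg caps actin filaments, Coro1a binds actin in leukocytes and Gnai3 is an inhibitory G protein subunit. Coro1a had 1219, 1769 and 1652 CPM in PBS mice, 630, 1771 and 1409 in EnzR EVs mice and 1261, 1791 and 1302 in EnzR EVs + HDL NPs mice. On the same measure Rac2 stood at 0.300 and ranked 8th of 12553. The others were further off: Ncf4 at 0.396 (rank 234), Cybb at 0.441 (536), Ncf1 at 0.497 (1113), Cyba at 0.776 (4181) and Sod2 at 1.03 (5807). The mean pattern is thus nearest to that of Rac2 and least that of Sod2, and many other genes lie nearer to it than the members other than Rac2. The members enter that mean themselves.

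The rest of the pathway was read from lists of genes. Of 18 genes for assembly and activation, edgeR called none in any comparison. In EnzR EVs against PBS, 3 were higher and 15 lower, with a median log2 fold change of -0.20 (all genes -0.027). The lowest were Dock2, a leukocyte exchange factor for Rac (-0.46), Pik3cg, a phosphoinositide kinase (-0.39), and Rap1a (-0.34). In EnzR EVs + HDL NPs against PBS, 12 were higher and 6 lower (median 0.098), and against EnzR EVs 15 were higher and 3 lower (median 0.27, all genes 0.033), led by Dock2 at 0.75 ± 0.391. Dock2 had 178, 318 and 305 CPM in PBS mice, 77.4, 299 and 201 in EnzR EVs mice and 316, 326 and 338 in EnzR EVs + HDL NPs mice, the same low libraries as for Cybb. Without those libraries the list was split 11 higher and 7 lower in EnzR EVs against PBS, and 9 to 9 in both comparisons of the nanoparticle group. BC017643, the symbol in the counts for Cybc1, which encodes a chaperone of the flavocytochrome, was at 0.0052 ± 0.156 in EnzR EVs against PBS and -0.11 ± 0.156 with nanoparticles against without.

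Of 9 receptors that trigger the burst, edgeR called none. In EnzR EVs against PBS 4 were higher and 5 lower (the same numbers without the libraries with much Rn45s), and with nanoparticles against without 7 were higher and 2 lower (1 and 8 without those libraries). Clec7a, the beta-glucan receptor (-0.67 ± 0.538), Fpr1, a formyl peptide receptor (-0.64 ± 0.636), and Fcgr3, an antibody receptor (-0.51 ± 0.512), were the lowest in EnzR EVs against PBS and also the highest with nanoparticles against without (0.95, 0.90 and 0.72), and both comparisons share the EnzR EVs mice. The complement receptor C5ar1 stood opposite, at 0.41 ± 0.276 and -0.60 ± 0.276. Fpr1 had 71.5, 258 and 256 CPM in PBS mice and 30.2, 244 and 95.6 in EnzR EVs mice, so its low values were in the libraries with much Rn45s. Of 7 genes that supply NADPH, 6 were tested and none was called: 4 were higher and 2 lower in EnzR EVs against PBS, and 3 and 3 with nanoparticles against without (0 and 6 without the libraries with much Rn45s). G6pdx, the first enzyme of the pentose phosphate pathway, was at 0.063 ± 0.248 in EnzR EVs against PBS and 0.012 ± 0.248 with nanoparticles against without. Pgls, the next enzyme, was at 0.37 ± 0.267 and -0.79 ± 0.268 (edgeR adjusted p = 0.461).

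Among 16 genes that handle superoxide and peroxide, 15 were tested and none was called. In EnzR EVs against PBS, 9 were higher and 6 lower (median 0.0038, all genes -0.027). In EnzR EVs + HDL NPs against PBS, 0 were higher and 15 lower (median -0.17, all genes -0.0072), and 14 were lower without the libraries with much Rn45s. Against EnzR EVs, 4 were higher and 11 lower (median -0.35), and 4 of the lower ones had an unadjusted p under 0.05, which 6.97% of all genes had in this direction. Without the libraries with much Rn45s the split was again 4 higher and 11 lower (median -0.25), with 1 of the lower ones at an unadjusted p under 0.05. Gpx1, a glutathione peroxidase, was at -0.96 ± 0.288 (edgeR adjusted p = 0.461), Mpo, which uses peroxide to make hypochlorous acid, at -0.96 ± 0.321, and the mitochondrial thioredoxin Txn2 at -0.98 ± 0.412. Txn2 overlapped between the groups, at 23.3 to 27.7 CPM in EnzR EVs + HDL NPs mice and 26.0 to 80.7 CPM in EnzR EVs mice, whereas Gpx1 and Mpo did not. Gpx1 had 1232, 735 and 718 CPM in PBS mice, 1574, 851 and 959 in EnzR EVs mice and 543, 684 and 507 in EnzR EVs + HDL NPs mice. The nanoparticle group lay below both others, and the highest values were in libraries with much Rn45s. Mpo is also a marker of early granulocytes, and the other 3 markers of that list summed to 697, 561 and 632 CPM in PBS mice, 424, 801 and 835 in EnzR EVs mice and 576, 319 and 366 in EnzR EVs + HDL NPs mice, with overlap between the nanoparticle group and both others. Catalase (Cat) stood at -0.39 ± 0.181 in EnzR EVs against PBS, and Txnrd1 at 0.38 ± 0.140 with an unadjusted p of 0.022 (adjusted p = 0.928).

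Of 10 genes of the other NADPH oxidases, only Noxo1 passed the filter, at 0.473 to 2.19 CPM. Nox1, Nox3, Nox4, Noxa1, Duox1, Duox2, Duoxa1, Duoxa2 and Rac3 had at most 48 counts each over the 9 libraries together.

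From a list of transcription factors known for these loci, 8 were tested and others were not analysed here. None of the 8 was called: 4 were higher in EnzR EVs than in PBS, 5 in EnzR EVs + HDL NPs than in PBS, and 4 in EnzR EVs + HDL NPs than in EnzR EVs. Irf1, whose family binds the ISRE core shown above, stood at 0.69 ± 0.315 in EnzR EVs + HDL NPs against PBS (edgeR adjusted p = 1.00) and at 0.69 ± 0.316 against EnzR EVs. Irf1 had 82.5, 130 and 122 CPM in PBS mice, 58.2, 166 and 107 in EnzR EVs mice and 196, 181 and 164 in EnzR EVs + HDL NPs mice. All mice of the nanoparticle group but 1 exceeded every other mouse. Cebpb, a factor of stressed and maturing myeloid cells, had 779, 274 and 214 CPM in PBS mice, 1422, 198 and 542 in EnzR EVs mice and 128, 224 and 267 in EnzR EVs + HDL NPs mice, the reverse of Cybb across the libraries with much Rn45s. Without those libraries, 6 of the 8 were higher in EnzR EVs than in PBS, 5 of 8 in EnzR EVs + HDL NPs than in PBS, and 4 of 8 in EnzR EVs + HDL NPs than in EnzR EVs.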

How the data were processed

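RNA was sequenced (single-end, 75 bases, stranded total RNA after ribosomal RNA depletion, from 200 ng) from CD11b+ bone marrow cells of 9 mice, 24 h after the last injection. The values deposited by the authors are raw counts for each gene, not normalized: adapters were trimmed (cutadapt 1.13 in the submitters' processing notes), poor and ribosomal reads removed, reads aligned to mm10 with STAR and counted with htseq-count (HTSeq 0.6.1p1) on the UCSC annotation. Groups came from the sample titles.

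Counts were fitted in R 4.3.3 with edgeR 4.0.16 (TMM, default filter, robust quasi-likelihood, all 9 libraries, 1 coefficient per group), with Benjamini-Hochberg adjustment over 12553 genes and a threshold of 0.05. SEs are the log2 fold change over the root of the F statistic, and log2 CPM had a prior count of 2. Alternatives were DESeq2 1.42.0 and limma 3.58.1 (voom, with and without sample quality weights), other size factors, no filter, a replicate block, only the libraries compared, and libraries left out. Leaving out the 3 libraries with over 10% of counts on Rn45s was chosen after seeing the data. The edgeR, limma and DESeq2 fits were tested on simulated counts, and the other steps were not. Figures were drawn with Python 3.11.15 and matplotlib 3.10.9.

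The 6 members and all gene lists were chosen with earlier results of these data known. Named genes are the 6 members, the 3 highest and 3 lowest of each pathway list in each comparison, as far as given, and the 5 nearest in pattern. Some genes of the lists are not reported here and were left out of their counts. Cell type markers and Rn45s appear where their level stands beside a result. Annotation came from GENCODE, and promoters from RefSeq, which matched 4 of the 6 members. Precision is limited by counting in the smallest library (2575776 counts, 3 counts being 1.65 CPM) and otherwise by the spread between 3 mice.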

Additional observations from a re-analysis of the deposited data

How the results depend on the processing

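The limits are few mice, 3 libraries with low totals and much Rn45s, and wide intervals for Cybb and Ncf4. Of 288 values of the members under 16 alternatives, 250 kept their direction and none was called. The other 38 changed sign, in 12 of 18 results, and the cause was not tested.

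Genes called in EnzR EVs against PBS were 0 by edgeR, 1 without a filter on low counts, 1 with the replicate block, 5 without the 2 libraries with the lowest totals, 10 without the 3 libraries with the highest Rn45s share, 14 by DESeq2 and 1990 by limma voom with sample quality weights, and 0 by voom without weights. They were 0 to 2 when 1 mouse was left out, 2 of them without PBS replicate 1. In EnzR EVs + HDL NPs against PBS they were 0 by edgeR, 2 by DESeq2 and 10 with quality weights (0 to 0 with 1 mouse left out). Against EnzR EVs they were 0 by edgeR, 1 without the 2 lowest totals, 1 without the 3 libraries with much Rn45s, 1 by DESeq2, 653 with quality weights and 1 with the 6 libraries compared (0 to 0 with 1 mouse left out).

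Sign changes in EnzR EVs against PBS, as log2 fold changes, were Cyba 0.0052 and Ncf1 0.0044 with DESeq2 size factors, Cyba 0.035 and Ncf1 0.019 without the 2 lowest totals, Cyba 0.0096 and Ncf1 0.0085 with the 6 libraries compared, and Cybb 0.17, Cyba 0.096, Ncf1 0.12, Ncf4 0.13 and Rac2 0.093 without the 3 libraries with much Rn45s. With 1 mouse left out, Cybb ran from -0.65 to 0.12, Cyba from -0.073 to 0.072, Ncf1 from -0.14 to 0.14, Ncf4 from -0.97 to 0.037 and Rac2 from -0.38 to 0.065, and without EnzR EVs replicate 1 all 5 were above 0. In EnzR EVs + HDL NPs against PBS, Ncf4 was -0.060 without the 2 lowest totals and -0.061 without the 3 libraries with much Rn45s, and with 1 mouse left out Cybb ran from 0.088 to 0.48, Cyba from -0.45 to -0.13, Ncf1 from 0.036 to 0.29, Ncf4 from -0.062 to 0.40 and Rac2 from -0.22 to 0.022. Against EnzR EVs, Rac2 was -0.16 and Sod2 -0.014 without the 2 lowest totals, Sod2 was -0.0024 with DESeq2 size factors, -0.021 with quality weights and -0.011 with the 6 libraries compared, and Cybb was -0.084, Ncf1 -0.066, Ncf4 -0.19 and Rac2 -0.31 without the 3 libraries with much Rn45s. With quality weights Cybb was at 0.62 and Ncf4 at 0.75 (limma adjusted p = 0.110 and 0.106). With 1 mouse left out, Cybb ran from 0.19 to 0.97, Ncf4 from 0.18 to 1.20, Ncf1 from 0.033 to 0.32, Cyba from -0.46 to -0.13, Rac2 from -0.16 to 0.30 and Sod2 from -0.033 to 0.039.

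Same-numbered libraries of different groups had a mean correlation of 0.174 of their deviations from the group means (lowest -0.175; over 0.1 in 6 of 9 pairs), against -0.076 for libraries of different number (over 0.1 in 6 of 18 pairs). The deviations sum to 0 within each group, so these means are not independent of each other. Between PBS and EnzR EVs all 3 same-numbered pairs were over 0.1 (0.473, 0.492 and 0.131), and 5 of 9 libraries correlated best with one of their own number. The value of 0.473 was between PBS replicate 1 and EnzR EVs replicate 1, the libraries with the most Rn45s (20.3% and 42.7%). The labels state no pairing and not every pair was over 0.1, so the block was kept as an alternative, in which 1, 0 and 0 genes were called and no member. The ratio of Cybb to Cyba in PBS mice was 1.19 per kilobase and 6.66 without division by length. Libraries PBS replicate 2 and 3 differed by more than sampling noise (chi-square of 4.48 per gene), and 3 counts corresponded to 0.160 to 1.65 CPM, and in the pathway lists Me1, Sod3 and 9 of 10 genes of the other NADPH oxidases did not pass the filter on low counts.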
